A study of Orbicella faveolata with 56 samples.

Results

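The members described here are 150 of the 87440 rows of the host table of the reef-building coral Orbicella faveolata, selected on their deposited counts because they were abundant and higher at 32 °C than at 30 °C in most corals. A row was eligible when its mean over the 30 °C libraries was at least 20 CPM (host counts scaled to a fixed library total of 1e6), which held for 9116 rows. The change with heat was log2(CPM + 1) at 32 °C minus that at 30 °C in fragments of the same coral at the same transplant site, and it had to lie above 0 in at least 21 of 27 such pairs, which held for 354 rows, or 3.88% of the eligible ones. The 150 with the largest mean change were kept. For comparison, 335 abundant rows (3.67%) lay below 0 in at least 21 pairs. Because the change with heat chose these rows, their heat response is described here without support from any test, and tests were kept for origin, site, genotype and coral.

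Reef corals are colonial animals that house photosynthetic dinoflagellates inside their cells, and warm water can break down that partnership in the process known as bleaching. The response of animal cells to heat is generally known to include chaperones, which refold damaged proteins, antioxidant enzymes, which remove reactive oxygen, and genes of immunity and cell death. The deposited files do not pair the host identifiers with gene names, so no function is assigned to any row below, and the tissue label was not checked against marker genes.

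The libraries came from 14 corals of 2 origins. The 8 corals of inshore origin A3, A5, A6, B1, B2, B3, B4 and B6 carried 6 genotype labels, because A3, A5 and A6 are all genotype In1. The 6 corals of offshore origin C1 to C6 carried 1 genotype each (O1 to O6), and all of them were collected at 1 reef site, so their origin and that site cannot be told apart. Fragments of every coral had been transplanted to an inshore and to an offshore site and were then brought over 7 days to 30 °C, the control, or to 32 °C, and kept there for 6 days before sampling. Corals of inshore origin gave 8 libraries in each combination of site and temperature, and corals of offshore origin gave 6, except for 5 at the inshore site at 32 °C, where no library of coral C3 was used. All fragments of a coral are pieces of 1 animal.

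Host totals ran from 2850075 to 7239229 estimated counts in the 55 libraries, with a median of 5021488. Totals of the symbiont table, which is named for Durusdinium trenchii, ran from 2865 to 1801987. Symbionts of other species were not counted separately here, so a low total is not read as a low number of symbionts. 8 libraries stood apart from the rest by their low mean correlation with the other libraries: A6 at the inshore site at 30 °C, B3 and B4 at the inshore site at 32 °C, B3, B6, C1 and C3 at the offshore site at 30 °C, and B1 at the offshore site at 32 °C. The main values that they touch are also given without them. The library numbers in the labels were also tied to temperature, since numbers 1 to 16 were all at 30 °C. Whole tissue was sequenced, so fewer cells of a type and less RNA per cell cannot be told apart in any value below.

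The size of the heat change was modest for most members. The mean change over the 27 pairs ran from 0.25 to 1.38 on the log2(CPM + 1) scale with a median of 0.34, which corresponds to a median 1.27-fold higher level. 19 members lay above 1.5-fold and 2 above 2-fold. Over all 9116 abundant rows the median change was −0.004. The pair-to-pair standard deviation of a member's change had a median of 0.48, which is larger than the median change itself. At 30 °C the members had a median of 43.8 CPM, with a range from 20.4 to 1204 CPM, and at 32 °C a median of 57.3 CPM, with a range from 22.9 to 1449 CPM.

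Consistency over pairs lay mostly at the lower end that the rule allowed. 50 members lay above 0 in exactly 21 pairs, 43 in 22, 28 in 23 and 21 in 24. Only 6 did so in 25 pairs, 1 in 26 and 1 in all 27. The limits of the rule fell within a continuous range of values. OFAVBQ_DN222944_c7_g1, the last row kept, had a mean change of 0.2457, and OFAVBQ_DN210067_c1_g1, the first left out, had 0.2447. A further 67 rows would have been kept with 20 pairs above 0, the largest of them with a mean change of 0.89, whereas the largest change of a member with 21 pairs was 0.62. The lowest mean level of a member was 20.4 CPM, and the nearest row below the minimum had 19.5 CPM.

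The members' summed share of host counts is likewise a description, since the rule chose them for a rise in these same pairs. In corals of inshore origin at the inshore site the members took 1.29% ± 0.0474 (SD, n = 8) of host counts at 30 °C and 1.89% ± 0.297 (n = 8) at 32 °C. At the offshore site their share was 1.28% ± 0.112 (n = 8) at 30 °C and 1.62% ± 0.137 (n = 8) at 32 °C. In corals of offshore origin the share went from 1.27% ± 0.0985 (n = 6) to 1.66% ± 0.214 (n = 5) at the inshore site. The starting shares of the groups therefore lay within 1 SD of each other, and the groups differed more in the share reached at 32 °C. At the offshore site corals of offshore origin went from 1.26% ± 0.137 (n = 6) to 1.72% ± 0.136 (n = 6). Without the libraries that stand apart the means at 30 and 32 °C were 1.28% (n = 7) and 1.83% (n = 6) in corals of inshore origin at the inshore site, 1.32% (n = 6) and 1.65% (n = 7) at the offshore site, and 1.32% (n = 4) and 1.72% (n = 6) in corals of offshore origin at the offshore site. The share was higher at 32 °C in 26 of 27 pairs, as the rule favours, and the 10 most abundant members supplied 40.2% of the members' counts at 30 °C.

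**Figure D1:**
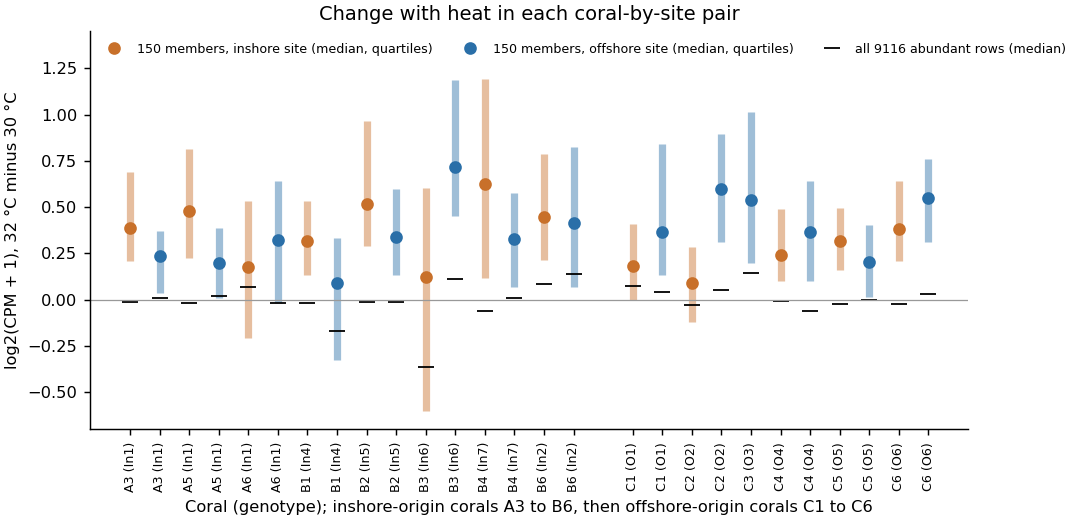
Median change of the 150 members (points, with quartile bars) in each of the 27 pairs, on the log2(CPM + 1) scale, beside the median of all 9116 abundant rows (short black lines). The median of the members lies above 0 in every pair, from 0.09 (B1 at the offshore site) to 0.72 (B3 at the offshore site), as the rule favours.

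The plot of changes by pair shows how far corals and sites spread around that general rise. The lowest medians of the members were 0.09 in B1 at the offshore site, 0.09 in C2 at the inshore site and 0.12 in B3 at the inshore site. In 2 of these 3 pairs, those of B1 and B3, the 32 °C library is among the 8 that stand apart. The highest medians were 0.72 in B3 at the offshore site, 0.62 in B4 at the inshore site and 0.60 in C2 at the offshore site. In the pair of B3 at the offshore site the 30 °C library stands apart, and in that of B4 the 32 °C library does. Without the 8 libraries, 19 pairs were left, in which the median of the members' mean changes was 0.34. The rule had used those pairs too, so nothing is read from that value.

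Values by library number are likewise a description, since the rule used all of these pairs. In the 12 pairs whose libraries both carry numbers from 17 to 56 the members' mean changes had a median of 0.35, while the abundant rows had a median of −0.03. In the 15 pairs with a library numbered 1 to 16 the members' median was 0.37 and that of the abundant rows 0.02. The change was larger in the first set of pairs for 55 members and larger in the second for the rest. The symbiont ratio varied widely between libraries, so its relation to the members was also measured. Within groups, the correlation of a member's log2 level with the symbiont-to-host count ratio (log2) ran from −0.49 to 0.54 over 55 libraries that share corals, and its size was above 0.5 for 2 members. The same held for 1.69% of the abundant rows. A correlation within groups does not cover differences between sites, which were large: symbiont totals ran from 387754 to 1801987 in corals of offshore origin at the inshore site and from 2865 to 139512 at the offshore site, without overlap. Those of inshore origin had a median of 163954 at the inshore and 8486 at the offshore site, and the ranges overlapped.

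Named by the size of the change, OFAVBQ_DN214053_c3_g2 stood first. At the inshore site it ran in corals of inshore origin at 30 °C from 37.3 to 183 CPM with a median of 107, and at 32 °C from 36.9 to 284 CPM with a median of 267. At the offshore site the same corals went from 18.9 to 148 CPM with a median of 70.4 at 30 °C to a range of 34.6 to 421 CPM with a median of 302 at 32 °C. The ranges overlapped at both sites. The lowest libraries at 32 °C were B3 at the inshore and B1 at the offshore site, which both stand apart, and at the inshore site A6 (157 CPM) and B4 (164 CPM, which stands apart) also lay below the highest library at 30 °C. At the inshore site the 6 libraries of offshore origin at 30 °C lay between 75.4 and 98.1 CPM, and the 5 at 32 °C had 74.5 CPM in C2, 185 in C4, 189 in C5, 242 in C6 and 366 in C1. At the offshore site the 6 libraries lay between 23.3 and 193 CPM at 30 °C, with a median of 70.2, and between 192 and 303 CPM at 32 °C, with a median of 234. All pairs of offshore origin but that of C2 at the inshore site were thus higher at 32 °C, and C2 in that condition was below every 30 °C library of its group. Over all pairs the mean change was 1.38 with an SD of 1.33, above 0 in 24 of 27 pairs, a 2.59-fold higher level. Without the libraries that stand apart the mean change was 1.42.

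OFAVBQ_DN214475_c0_g1 had the second largest change, 1.01 with an SD of 1.29 over the 27 pairs, above 0 in 23, and the mean was 1.04 without the libraries that stand apart. At the inshore site it lay in corals of inshore origin between 20.5 and 60.6 CPM at 30 °C, with a median of 40.6, and between 7.44 and 309 CPM at 32 °C, with a median of 82.0. The lowest of these was B3 and the highest B4, the 2 libraries of that group that stand apart. At the offshore site these corals ran from 33.8 to 92.4 CPM at 30 °C, with a median of 61.5, and from 36.3 to 138 CPM at 32 °C, with a median of 95.1. The ranges overlapped in both conditions. Among corals of offshore origin at the inshore site the values ran from 19.6 to 116 CPM at 30 °C, with a median of 74.6, and the 5 libraries at 32 °C had 73.8 CPM in C1, 113 in C2, 143 in C4, 245 in C5 and 304 in C6. At the offshore site the values ran from 16.4 to 144 CPM at 30 °C, with a median of 63.9, and from 78.7 to 603 CPM at 32 °C, with a median of 117. The ranges again overlapped, and C2 at the offshore site at 32 °C was the highest library of all.

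OFAVBQ_DN205339_c0_g1 was higher at 32 °C in all 27 pairs, by 0.77 on average with an SD of 0.46. Its level at 30 °C was similar across groups, with a median of 30.0 CPM (25.3 to 44.1) in corals of inshore origin at the inshore site, 37.4 (26.5 to 47.8) in these corals at the offshore site and 30.9 (22.9 to 35.9) and 30.2 (28.1 to 43.9) in corals of offshore origin at the inshore and offshore sites. At 32 °C the corals of inshore origin at the inshore site reached a median of 77.7 CPM (32.4 to 110), and these corals at the offshore site 52.1 CPM (44.2 to 81.8). Corals of offshore origin at the inshore site had 29.6 CPM in C1, 36.8 in C4, 53.3 in C2, 56.1 in C5 and 61.1 in C6, and at the offshore site a median of 50.7 CPM (33.6 to 76.7). Every genotype had a positive mean change, from 0.30 in O1 to 1.04 in In2. All of its deposited values were whole numbers.

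OFAVBQ_DN203932_c4_g3 was higher at 32 °C in 26 of 27 pairs, with a mean change of 0.56 and an SD of 0.40. Its levels differed more between corals than between temperatures. At the inshore site the corals of inshore origin had a median of 88.6 CPM (29.7 to 122) at 30 °C and 115 CPM (44.4 to 283) at 32 °C. At the offshore site they had 61.5 CPM (27.6 to 71.1) at 30 °C and 88.9 CPM (42.9 to 164) at 32 °C. The 12 libraries of genotype In1 lay between 27.6 and 61.5 CPM and the 4 of O2 between 112 and 234 CPM, without overlap.

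The 2 most abundant members moved little. OFAVBQ_DN224436_c0_g1 had 1204 CPM on average at 30 °C and 1449 CPM at 32 °C, a mean change of 0.27 that lay above 0 in 21 pairs. OFAVBQ_DN218952_c1_g1 had 971 CPM at 30 °C and 1228 CPM at 32 °C, a mean change of 0.34 that lay above 0 in 22 pairs. For both rows the ranges at 30 and 32 °C overlapped in each combination of origin and site.

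**Figure D2:**
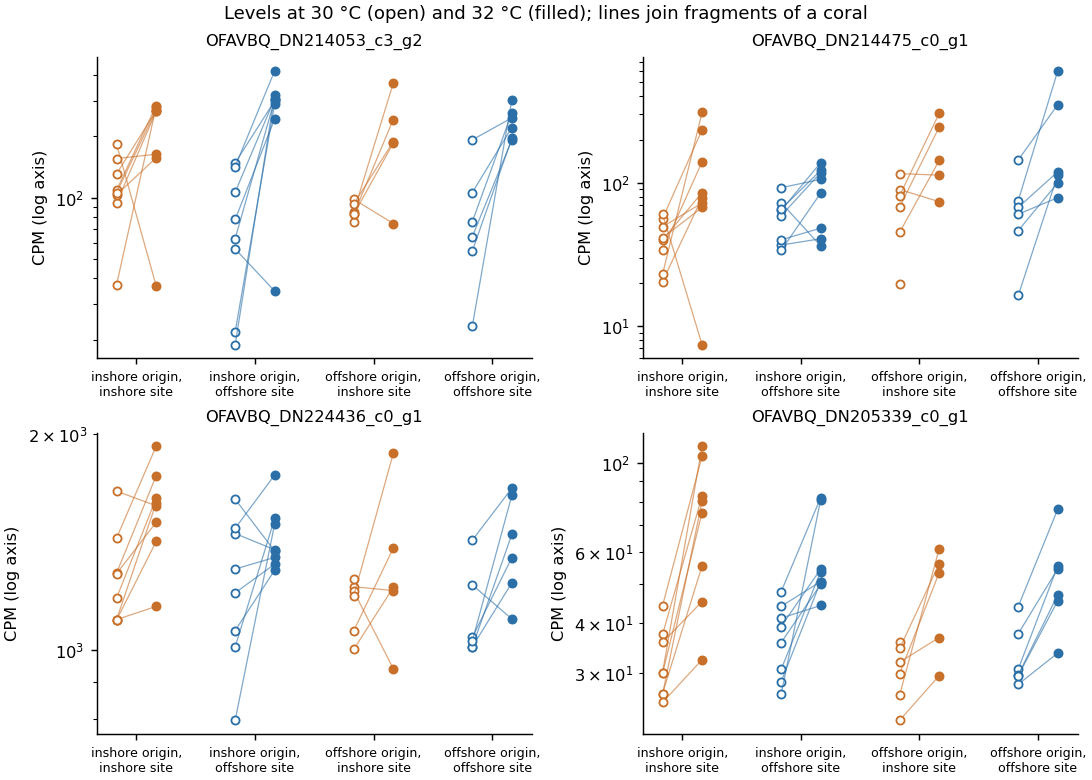
Level in CPM (log axis) of the 2 members with the largest change, the most abundant member and the member raised in all 27 pairs, for each library, with lines joining the 2 temperatures of a coral at a site (orange inshore site, blue offshore site). In OFAVBQ_DN205339_c0_g1 every line goes up, whereas in OFAVBQ_DN214053_c3_g2 3 of the 27 lines go down.

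The 4 combinations of origin and site were then set side by side. The median over members of the mean change was 0.38 in corals of inshore origin at the inshore site, 0.34 in these corals at the offshore site, 0.24 in corals of offshore origin at the inshore site and 0.45 in those at the offshore site. The medians of all abundant rows in these combinations were −0.04, 0.005, 0.003 and 0.04. The change was above 0 for 145, 149, 148 and 149 members. It was above 0 in every pair of a combination for 22 members (8 pairs), 13 members (8 pairs), 58 members (5 pairs) and 53 members (6 pairs), counts that fall with the number of pairs.

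For the heat contrast itself, which the rule had used, the counts of calls are given as a description and nothing is read from them. In edgeR's quasi-likelihood test with coral as a block, 119 of the 150 members were called higher at 32 °C at a Benjamini-Hochberg adjusted p under 0.05, where 1.82% of 35219 rows were called higher. The count was 76 without coral C6 and 77 without coral C4. In corals of inshore origin at the inshore site 42 members were called, all higher (0.67% of all rows in either direction). That count depended on single corals, with 11 members called when B2 was left out, 12 for B4, 15 for A3, 17 for A5 and 25 for B3 or for C4. In these corals at the offshore site 1 member was called (0.00852% of all rows), OFAVBQ_DN203932_c4_g3, with a log2 change of 0.77 ± 0.14 (SE) and an edgeR adjusted p of 0.0327. With each coral left out the change stayed between 0.70 and 0.82, while that p ran from 0.00104 without coral B4 to 0.223 without coral A3. The p was also 0.25 with the In1 corals summed, 0.11 with a term for library numbers 1 to 16, 1 with libraries 17 to 56 alone and 1 without the coral block, and DESeq2 gave 0.000151. In corals of offshore origin at the inshore site edgeR called 0 members (0% of all rows). There 43 members (28.7%) had an unadjusted p under 0.05, beside 4.70% of the abundant rows, in changes that the rule had used. DESeq2 called 2, and its share over all rows is not given here. At the offshore site 6 members were called (0.162% of all rows), 0 without C4 and 0 without C6, and 3 without C2 or without C3.

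Whether the heat change differed by origin is a comparison that the rule did not fix. The demand on the number of positive pairs still limited how far the combinations could differ. For the difference in heat response between corals of offshore and of inshore origin edgeR called 0 members (0% of all rows). 7 members (4.67%) had an unadjusted p under 0.05, beside 5.77% of the abundant rows. 5 of the 7 had a smaller change in corals of offshore origin, and DESeq2 called 0. The median of the differences was −0.06, with 58 of 150 members above 0, beside 0.002 over the abundant rows. The smallest edgeR adjusted p of a member was 0.99.

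The members with the smallest p in each direction are given as examples. They did not have the largest differences by origin, which ran from −0.63 to 0.50 over all members. OFAVBQ_DN215025_c3_g3 had its main change in corals of offshore origin at the offshore site, from a median of 46.6 CPM (28.8 to 61.3) at 30 °C to 87.8 CPM (66.4 to 162) at 32 °C, ranges that did not overlap. Elsewhere its median moved less, from 55.9 to 63.9 CPM in corals of inshore origin at the inshore site, for example. The difference in heat response by origin was 0.38 ± 0.17 (SE), with an edgeR adjusted p of 0.99, and 0.26 without the libraries that stand apart. In OFAVBQ_DN203932_c4_g3 the difference went the other way, −0.38 ± 0.15 (SE), with an edgeR adjusted p of 0.99, and −0.27 without the libraries that stand apart. In corals of offshore origin at the inshore site the 5 libraries at 32 °C had 31.5 CPM in C1, 55.9 in C6, 74.5 in C4, 118 in C5 and 173 in C2. Against the 30 °C library of the same coral the change was −0.29 in C1 and lay above 0 in the others, at 0.10 in C6, 0.04 in C4, 0.20 in C5 and 0.63 in C2.

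By transplant site the heat change was likewise not separable for any single member. For the difference between the offshore and the inshore site edgeR called 0 members (0% of all rows), 25 had an unadjusted p under 0.05, 10 with a larger and 15 with a smaller change at the offshore site, and DESeq2 called 0. The median difference was −0.002, with 74 of 150 above 0. The share with an unadjusted p under 0.05 was 16.7% among members and 8.34% among abundant rows.

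OFAVBQ_DN210328_c1_g2 had the largest of these differences towards the offshore site. In corals of inshore origin its median went from 40.9 CPM (31.6 to 63.8) to 52.05 CPM (8.95 to 68.4) at the inshore site and from 30.8 CPM (22.9 to 39.8) to 51.3 CPM (35.02 to 58.5) at the offshore site. In corals of offshore origin at the offshore site it went from 34.5 CPM (14.02 to 54.01) to 65.6 CPM (47.7 to 153). At the inshore site all 5 of their pairs lay above 0, with a mean change of 0.11, and the 5 libraries at 32 °C had 38.3 CPM in C6, 46.1 in C1, 53.4 in C5, 55.01 in C2 and 64.99 in C4. The difference was 0.86 ± 0.21 (SE), with an edgeR adjusted p of 0.831. B3 at the inshore site at 32 °C, a library that stands apart, had the lowest level of its group, 8.95 CPM, and without the libraries that stand apart the difference was 0.69.

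OFAVBQ_DN223656_c2_g1 differed in the opposite direction, by −0.57 ± 0.17 (SE), with an edgeR adjusted p of 0.831. In corals of inshore origin at the inshore site its median went from 17.9 CPM (10.6 to 66.2) at 30 °C to 38.5 CPM (14.2 to 137) at 32 °C, and at the offshore site from 20.1 CPM (10.04 to 72.7) to 18.9 CPM (14.6 to 58.7). The ranges overlapped in both cases.

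**Figure D3:**
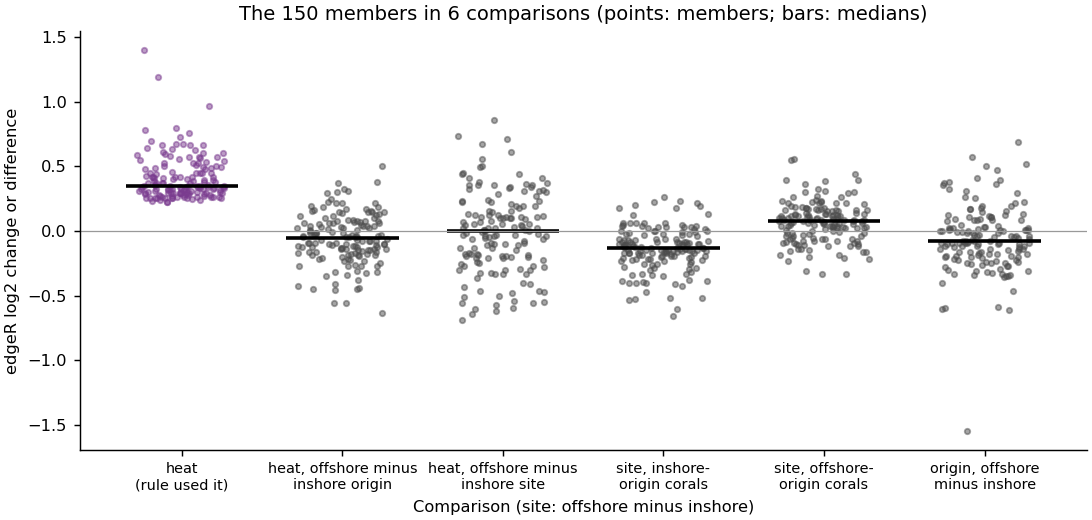
edgeR log2 changes or differences of the 150 members (points, with bars for medians) for heat, which the rule used, and for 5 further comparisons. The rule's demand on positive pairs also limited heat by origin and heat by site. The members spread on both sides of 0 for heat by origin and by site, lie mostly below 0 for site in corals of inshore origin (median −0.13) and mostly above 0 for site in corals of offshore origin (median 0.08).

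The level of the members at either temperature was also compared between transplant sites. Averaged over origins, edgeR called 0 members for site (0.386% of all rows), and DESeq2 called 0. 5 members (3.33%) had an unadjusted p under 0.05, 3 higher and 2 lower at the offshore site, beside 4.42% of the abundant rows. In corals of inshore origin the members tended to be lower at the offshore site, with a median of −0.13 and 29 of 150 above 0, against 0.008 over the abundant rows, of which 52.8% lay above 0. edgeR called 0 members (0.142% of all rows), 32 (21.3%) had an unadjusted p under 0.05, 30 of them lower, beside 10.3% of the abundant rows, and DESeq2 called 1, lower, of 219 called among 82742 rows. In corals of offshore origin the median was 0.08 with 105 of 150 above 0. edgeR called 0 members there (0.392% of all rows), 12 (8%) had an unadjusted p under 0.05, all of them higher at the offshore site, beside 5.65% of the abundant rows, and DESeq2 called 0. With the symbiont ratio as a term the median in corals of offshore origin was 0.006, with 77 of 150 above 0 and 1 at an unadjusted p under 0.05. Totals of the symbiont table differed between these sites without overlap, so site and that total cannot be told apart in corals of offshore origin. Whether other symbionts were present was not tested.

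The difference between these effects of site is the interaction of site and origin, here inshore origin minus offshore origin. Its median over members was −0.19, with 25 of 150 above 0, beside 0.01 over the abundant rows, of which 52.97% lay above 0. edgeR called 0 members (0.324% of all rows) and so did DESeq2. 32 members had an unadjusted p under 0.05, 31 of them below 0, a share of 21.3% beside 10.7% of the abundant rows. Members share libraries and move together, so this is a description of a common shift and not 150 separate observations. The median stayed below 0 in all 23 alternative fits, from −0.25 with libraries 17 to 56 alone to −0.15 with the symbiont ratio as a term, where 5 in place of 32 members had an unadjusted p under 0.05.

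OFAVBQ_DN216441_c5_g2 had the smallest p among the members with a negative interaction, at −0.59 ± 0.17 (SE), with an edgeR adjusted p of 0.184. This row had −0.41 without the libraries that stand apart. Its median in corals of inshore origin was 91.6 CPM (72.5 to 122) at 30 °C and 123 CPM (76.1 to 241) at 32 °C at the inshore site, and 76.0 CPM (61.5 to 98.0) and 116 CPM (62.6 to 126) at the offshore site. In corals of offshore origin the inshore site had a median of 100.05 CPM (84.8 to 142) at 30 °C and 95.4 CPM in C6, 99.6 in C1, 106 in C4, 121 in C5 and 124 in C2 at 32 °C. The offshore site had a median of 99.2 CPM (89.4 to 148) at 30 °C and 153 CPM (101 to 212) at 32 °C in these corals. It was higher at the offshore site in 4 of 16 coral and temperature pairs of inshore origin and in 8 of 11 of offshore origin. OFAVBQ_DN207083_c4_g3 had a positive interaction of 0.43 ± 0.16 (SE), with an edgeR adjusted p of 0.416. Both rows were named by their p and did not have the largest interactions, which ran from −0.86 to 0.60 over all members.

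Site was also split by temperature, a comparison added after the values had been seen. The members' median for the offshore minus the inshore site was, in corals of inshore origin, −0.04 at 30 °C and −0.22 at 32 °C. In corals of offshore origin it was −0.004 at 30 °C and 0.14 at 32 °C. The medians for the 2 origins thus had opposite signs at 32 °C and were both below 0 at 30 °C. Averaged over origins, whether the effects of site differ between temperatures is the test of heat by site above, in which 0 members were called. Shifts of opposite sign in the 2 origins cancel in that average. The contrast of heat at own and other site types, given below, keeps them, and 0 members were called there too. Whether the effect of site differed between temperatures within a single origin was not tested. At 30 °C the inshore-origin median ranged over the alternative fits from −0.16, with libraries 17 to 56 alone, to −0.01, without coral B3, and the offshore-origin median from −0.08, with the symbiont ratio as a term, to 0.02, without coral C1. The inshore-origin median ranged over the alternative fits from −0.25 to −0.14 at 32 °C, the latter without the libraries that stand apart. The offshore-origin median at 32 °C ranged from 0.05, with the symbiont ratio as a term, to 0.21, without coral C5. edgeR called 0 members for site in corals of inshore origin at 30 °C (0% of all rows) and 0 at 32 °C (0% of all rows), where 13 (8.67%) and 46 (30.7%) had an unadjusted p under 0.05, beside 5.09% and 10.5% of the abundant rows. DESeq2 called 0 members of 79 rows called at 30 °C and 2 of 243 at 32 °C. In corals of offshore origin edgeR called 0 members at 30 °C (0.366% of all rows), and DESeq2 called 0. There 2 members (1.33%) had an unadjusted p under 0.05, beside 4.75% of the abundant rows. At 32 °C edgeR called 1 member (0.301% of all rows).

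That member was OFAVBQ_DN214703_c0_g1. In corals of offshore origin at 32 °C it had 24.02 CPM in C2, 26.8 in C4, 32.7 in C5, 33.1 in C6 and 35.8 in C1 at the inshore site, and from 34.3 to 117 CPM at the offshore site, with a median of 47.01. The groups overlapped only at the edge, with C2 lowest at both sites. At 30 °C the same corals had a median of 31.1 CPM (22.7 to 40.3) at the inshore and 33.3 CPM (14.5 to 36.95) at the offshore site. The difference at 32 °C was 0.96 ± 0.19 (SE), with an edgeR adjusted p of 0.00535. The call was lost without coral C6 (adjusted p = 0.159), without coral C4 (adjusted p = 0.213) and with the symbiont ratio as a term (adjusted p = 0.913), and the difference was then 0.72, 0.80 and 0.87.

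The same arrangement can be written as the heat change at a site of the coral's own origin type minus that at the other type. The members' median for this contrast was 0.16, with 126 of 150 above 0, beside 0.005 over the abundant rows, of which 51.8% lay above 0. edgeR called 0 members (0% of all rows), 15 had an unadjusted p under 0.05, all above 0 (10% of members and 2.25% of abundant rows), and DESeq2 called 0. The smallest edgeR adjusted p of a member was 1. The median ranged from 0.09, with libraries 17 to 56 alone, to 0.20, without coral A6. By coral, the median change of the members was larger at the offshore site in 2 of 8 corals of inshore origin and in 4 of 5 corals of offshore origin with both pairs.

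Between origins the members did not separate. Tested on counts summed per genotype, 6 against 6, edgeR called 0 members (0% of 39603 rows). 15 (10%) had an unadjusted p under 0.05, 3 higher and 12 lower in corals of offshore origin, beside 5.79% of the abundant rows. The median difference was −0.08, with 54 of 150 members above 0, beside −0.02 over the abundant rows, of which 45.1% lay above 0. DESeq2 called 1 member, OFAVBQ_DN222998_c0_g1, and nothing is read from that call, since DESeq2's share over all rows is not given here. This member also had the smallest p by edgeR's test among those lower in corals of offshore origin. This row had a median of 35.6 CPM (31.3 to 55.7) in inshore-origin and 29.9 CPM (26.7 to 32.5) in corals of offshore origin at the inshore site at 30 °C. At the same site at 32 °C it had 51.2 CPM (38.95 to 73.2) in corals of inshore origin and 35.2 CPM in C1, 37.0003 in C4, 37.7 in C2, 39.8 in C5 and 44.4 in C6 among those of offshore origin, and at the offshore site the ranges overlapped at both temperatures. The difference by edgeR was −0.31 ± 0.07 (SE), with an adjusted p of 0.924, and −0.19 without the libraries that stand apart. OFAVBQ_DN223561_c1_g1 had the smallest p among the members higher in corals of offshore origin. Its difference was 0.18 ± 0.07 (SE), with an edgeR adjusted p of 0.924. These 2 rows did not have the largest differences, which ran from −1.54 to 0.69 over all members.

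Levels differed between individual corals over much of the table, and the members' share of calls was near that of all rows. For differences between corals within origins edgeR called 104 members (69.3%), and 66.6% of all rows and 54.4% of the abundant rows were called. The genotype with the highest level at 30 °C was most often In7, with 36 members, and O5, with 29. The SD of the 12 genotype means at 30 °C had a median of 0.32 over members on the log2 scale, near the median heat change. The change with heat was smaller than that SD for 64 members and smaller than the whole range of the genotypes for all 150.

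OFAVBQ_DN222540_c5_g7 had the strongest differences between corals, with an edgeR adjusted p of 7.63e-18. Its 12 libraries of genotype In1 lay between 2.64 and 6.90 CPM, the 4 of In6 between 0.694 and 8.53 and the 4 of O4 between 3.30 and 6.63 CPM. The 4 libraries of In7 lay between 67.8 and 154 CPM and the 4 of O2 between 67.3 and 94.3. The 3 low genotypes thus did not overlap with the 2 high ones at either temperature, and both origins held low and high genotypes. Heat added a mean change of 0.73 that lay above 0 in 23 pairs.

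OFAVBQ_DN199841_c0_g1 came next, with an edgeR adjusted p of 1.17e-16 for differences between corals. Its 4 libraries of In6 had from 0 to 1.06 CPM and its 4 of In2 from 0.785 to 2.16 CPM, while the 12 of In1 ran from 25.8 to 123 CPM and the 4 of In5 from 32.2 to 140. O1 was intermediate, from 5.12 to 14.5 CPM. Reads were not analysed here, so how the sequence of a genotype bears on the counts of a row was not tested.

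Corals A3, A5 and A6 share the genotype label In1 and gave a narrower comparison. For differences among these 3 corals edgeR called 1 member (0.261% of all rows). 11 members (7.33%) had an unadjusted p under 0.05, beside 5.99% of the abundant rows. The called row was OFAVBQ_DN219685_c3_g1, with an edgeR adjusted p of 2.69e-06. It had 4.33, 12.2, 7.01 and 5.51 CPM in A3, and 8.12, 11.7, 6.21 and 7.03 CPM in A5, each in the order inshore site at 30 and 32 °C and offshore site at 30 and 32 °C. In A6 it had 28.4, 23.1, 13.5 and 30.5 CPM, all above the values of A3 and A5. The other 11 corals lay between 14.99 and 51.1 CPM.

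**Figure D4:**
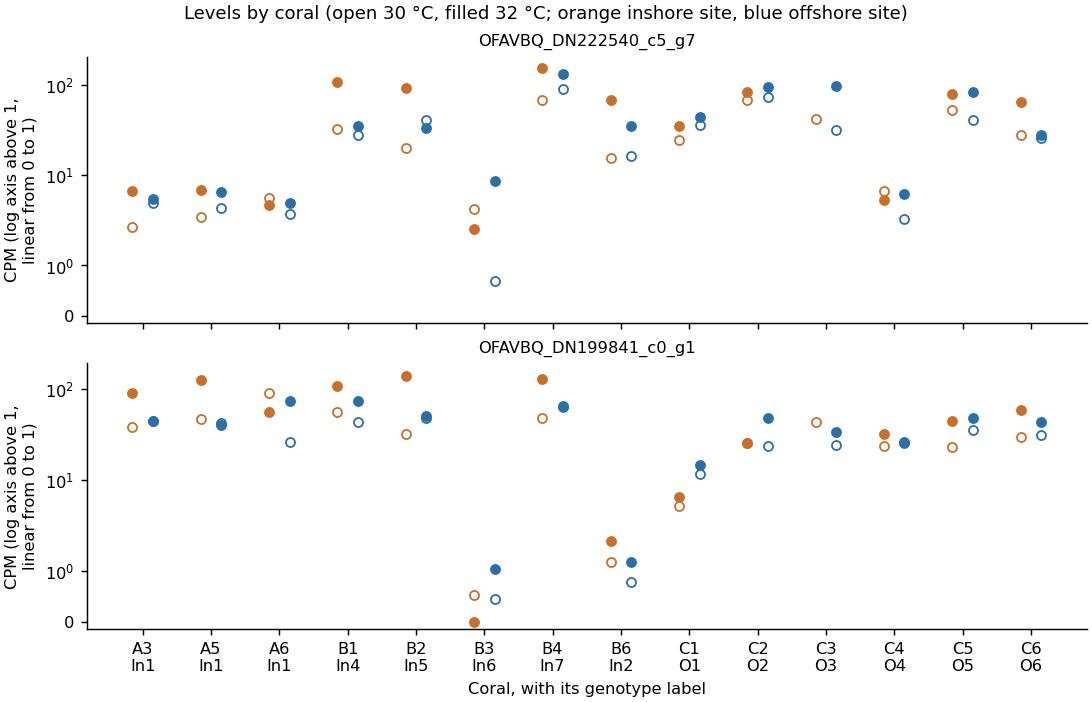
Levels in CPM by coral for the 2 members with the strongest differences between corals (axis logarithmic above 1 and linear from 0 to 1; open 30 °C, filled 32 °C; orange inshore site, blue offshore site). In OFAVBQ_DN222540_c5_g7 corals A3, A5, A6, B3 and C4 lie below 10 CPM in every library, and in OFAVBQ_DN199841_c0_g1 corals B3 and B6 lie below 3 CPM.

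The heat change by genotype is a description, since the rule favours rows that rise in most genotypes. The test for differences between genotypes follows below. 42 members had a mean change above 0 in all 12 genotypes, 41 in 11 and 67 in 10 or fewer, and 34 members were above 0 in all 14 corals. The median change of the members was lowest in In4, at 0.19 with 107 of 150 above 0, and highest in O3, at 0.54 with 126 above 0. In4 is coral B1 alone, with a median of 0.32 and 138 members above 0 at the inshore site. At the offshore site, where its 32 °C library stands apart, B1 had 0.09 and 88. O3 rests on a single pair of libraries, one of which stands apart, so no value without it can be given. In5 had all 150 members above 0 with a median of 0.50, and O6 had 149 with 0.47. In1, with 3 corals and 6 pairs, had a median of 0.30, with 0.33 in A3, 0.34 in A5 and 0.27 in A6. Corals of other genotypes, such as C1 and C4, also lay in that range. The medians of the genotypes ranged from 0.19 to 0.50 among inshore and from 0.27 to 0.54 among offshore origin, so the 2 origins overlapped.

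Whether the heat change of a member differed between genotypes within origins was tested in a fit with 10 degrees of freedom for the test and 25 for the residual. edgeR called 0 members (0% of all rows), and 8 of 150 (5.33%) had an unadjusted p under 0.05, beside 6.81% of the abundant rows. The rule's demand on positive pairs limited how far genotypes could differ in these rows. A low share is therefore not read as likeness of the genotypes. DESeq2 was not run for this test. OFAVBQ_DN223862_c6_g1 had the smallest p among the members, with an edgeR adjusted p of 0.826.

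Members did not change as a single unit from pair to pair. The correlation of the changes of 2 members over the 27 pairs had a median of 0.16, with quartiles of −0.06 and 0.37, and 0.14 without the libraries that stand apart. A first principal component held 33.4% of the variance of the changes and 23.4% without those libraries, with the pair of B3 at the inshore site carrying the largest loading. A row was joined to a group when the correlation of its changes with those of at least 1 row of the group exceeded 0.8, both in all pairs and without the libraries that stand apart, so rows of a group can be linked through others. This gave 9 groups with 37 members in all, and left the other members outside any group. These groups were drawn from the same values and were not tested.

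The largest group held 14 members, among them OFAVBQ_DN205339_c0_g1, OFAVBQ_DN222540_c5_g7 and OFAVBQ_DN199841_c0_g1. Of its 91 pairs of rows 22 met the limit themselves, and the median r within it was 0.76. Its median change ran from −0.33 in A6 at the inshore site to 2.12 in B2 at the inshore site. In corals of inshore origin the median over the 8 pairs was 1.14 at the inshore and 0.24 at the offshore site, whereas in corals of offshore origin it was 0.46 over 5 pairs and 0.39 over 6. It was above 0 in all 11 offshore-origin pairs. Without the libraries that stand apart the medians were 1.27 over 5 pairs and 0.05 over 5 in corals of inshore origin. The most alike members of all belonged to it, OFAVBQ_DN220672_c5_g8 and OFAVBQ_DN200165_c1_g2, whose changes correlated with r = 0.98 over 27 pairs that share corals, and also with r = 0.98 over the 19 pairs without the libraries that stand apart.

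A second group held 5 members of high abundance, with means of 156 to 764 CPM at 30 °C. Its median change ran from −0.42 in C5 at the offshore site to 1.26 in B3 at the offshore site. Over the pairs of a combination it was 0.72 in inshore-origin and 0.72 in corals of offshore origin at the inshore site, and 0.12 and 0.32 at the offshore site, so this group had its larger medians at the inshore site in both origins. Without the libraries that stand apart these medians were 0.61 and 0.72 at the inshore and 0.12 and −0.05 at the offshore site. OFAVBQ_DN207047_c0_g2, its most abundant member, went in corals of inshore origin at the inshore site from a median of 757 CPM (522 to 884) to 1156 CPM (656 to 1523). At the offshore site it went from 894 CPM (637 to 1182) to 935 CPM (727 to 1291) in the same corals. The ranges overlapped in both comparisons, by less at the inshore site.

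A pair of rows stood out by its single corals. OFAVBQ_DN220278_c1_g1 and OFAVBQ_DN215955_c1_g2 correlated with r = 0.97 in their changes. OFAVBQ_DN220278_c1_g1 had 23.7 CPM at 30 °C and 368 CPM at 32 °C in A6 at the inshore site, the highest of its group at 32 °C, and went the other way in B3 at the same site, from 128 to 20.9 CPM. Of the 4 libraries in these comparisons, those of A6 at 30 °C and B3 at 32 °C stand apart. The mean change of OFAVBQ_DN220278_c1_g1 was 0.62 over all pairs and 0.49 without the libraries that stand apart, and that of OFAVBQ_DN215955_c1_g2 was 0.56 and 0.49.

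**Figure D5:**
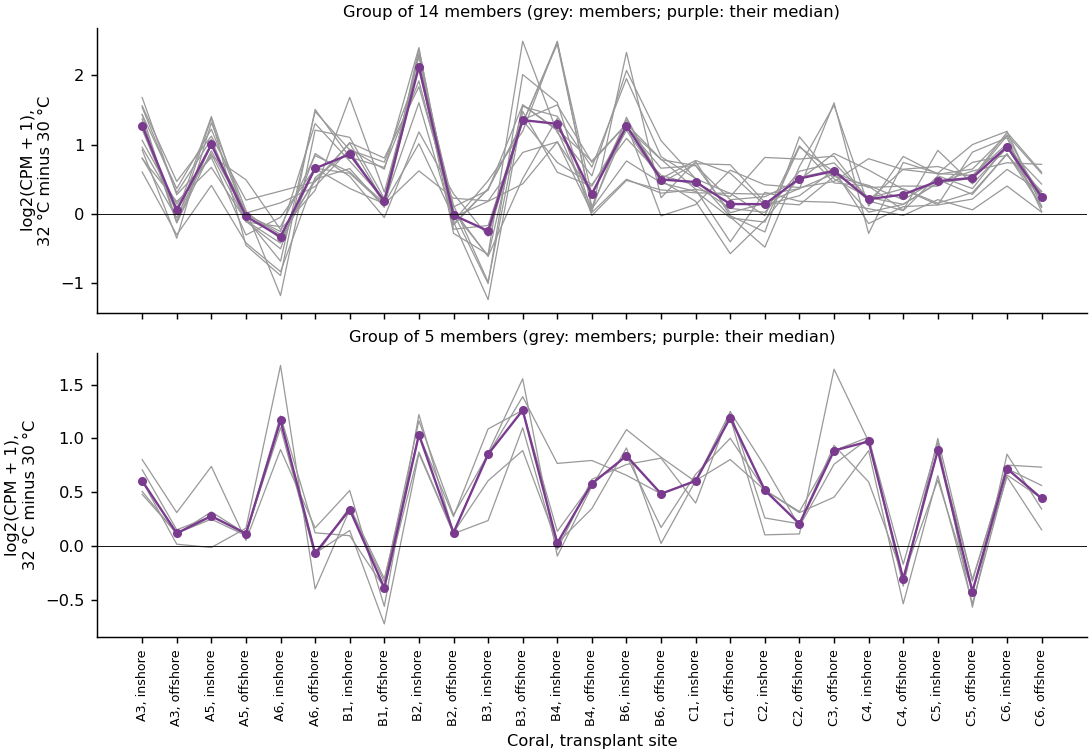
Change with heat, in log2(CPM + 1) at 32 °C minus 30 °C, of the members of the 2 largest groups of rows that moved together (grey lines, members; purple, their median) over the 27 pairs. In the group of 14 members the inshore-site pairs of corals of inshore origin are mostly high, up to 2.12 in B2, and the pairs of A6 and B3 at that site lie below 0. In the group of 5 members the median lies below 0 in 4 of 27 pairs.

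Identifiers give a last description of the members. The 150 rows came from 150 different components of the assembly, so none of them shares a component with another member. 15 members had a further abundant row of the same component. Those 15 partner rows had a median change of 0.08, 9 of them above 0, and 0 of them lay above 0 in 21 pairs or more. Rows of a component can be alleles, isoforms or close copies, among which reads may be divided, and such splits are uncertain here. Of a member's 55 values a median of 40% were not whole numbers, beside 52.7% for the abundant rows, and 32 members had only whole values.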

How the data were processed

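RNA was measured in 55 libraries of coral fragments. Per the labels' protocols, total RNA was made into stranded mRNA libraries. Per the submitters' processing notes, Trimmomatic 0.36 and RSEM were used, and the tables are named for kallisto. For the quantifier's version and the reference assembly, nothing is given in the sources used here. The authors deposited estimated counts without normalization, of which 74.7% of host and 99.3% of symbiont values were whole numbers. 1 of 56 columns per table matched no label and was not used.

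The members and lists were chosen with earlier results of these data known. CPM here are counts divided by the column sum of the host table. Counts were rounded to whole numbers and tested with the quasi-likelihood F test of edgeR 4.0.16 (R 4.3.3), after TMM scaling and a low-count filter (filterByExpr, 8 groups, minimum count 10), and p-values were adjusted over all rows by Benjamini-Hochberg at 0.05. The model held coral as a block and 35 residual degrees of freedom. Effects were averaged with equal weight over combinations. DESeq2 1.42.0 was an alternative. Coral is a block because its fragments are the same animal, and deviations from the group means correlated between libraries of 1 coral, with a mean r of 0.417 to 0.744 per coral. All libraries differed by more than counting noise, with a chi-square per degree of freedom of at least 4.0 within groups. A library stands apart if its mean r with the other libraries, over 33739 rows, falls more than 3 MADs (median absolute deviations) under the median library. The groups of members in common movement, the split of site by temperature and the contrast of heat at own and other site types were added after the data were seen.

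Named members were taken by rule: the 2 with the largest mean change, the 2 with the highest level, the 2 above 0 in most pairs, the 2 whose changes correlate most, and the strongest in each direction per comparison by its p. Others were named after their values were seen: those in counts of 5 or fewer and those in the groups of members. The edgeR fits were tested on simulated data.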

Additional observations from a re-analysis of the deposited data

Results flagged for a closer look

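Among 244 groups of 4 to 10 libraries of the named members and of their summed share, 18 values lay far from the other libraries of their group by Dixon's test, where chance gives about 1 in 20 groups. 3 came from B3 at the inshore site at 32 °C, which stands apart: OFAVBQ_DN215025_c3_g3 had 17.9 CPM there, OFAVBQ_DN210328_c1_g2 had 8.95 and OFAVBQ_DN223561_c1_g1 had 92.6, each the lowest of its group. 4 more came from other libraries that stand apart: OFAVBQ_DN214053_c3_g2 had 34.6 CPM in B1 at the offshore site at 32 °C, OFAVBQ_DN203932_c4_g3 had 283 in B4 at the inshore site at 32 °C, OFAVBQ_DN222998_c0_g1 had 55.7 in A6 at the inshore site at 30 °C, and the members' share of host counts was 1.02% in B3 at the offshore site at 30 °C. Coral B4 was far above its groups in OFAVBQ_DN222540_c5_g7, with 67.8 CPM at the inshore site at 30 °C and 89.3 and 131 CPM at the offshore site at 30 and 32 °C. Coral C5 was far above at 30 °C in 4 rows: OFAVBQ_DN207083_c4_g3 with 51.3 CPM, OFAVBQ_DN217591_c1_g1 with 179 and OFAVBQ_DN207047_c0_g2 with 1053 at the offshore site, and OFAVBQ_DN220278_c1_g1 with 307 at the inshore site. The remaining 4 were high values at 30 °C or 32 °C in single corals, namely OFAVBQ_DN215025_c3_g3 with 162 CPM in C6 at the offshore site at 32 °C, OFAVBQ_DN210328_c1_g2 with 63.8 in B1 at the inshore site, OFAVBQ_DN221579_c1_g1 with 196 in B3 at the inshore site and OFAVBQ_DN212104_c4_g2 with 301 in B1 at the offshore site, the last 3 at 30 °C. The part of any single library in these values was not tested.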

How the results depend on the processing

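The count of members called for heat, 119, was 49 without the coral block, 48 with a term for library numbers 1 to 16 and 4 with libraries 17 to 56 alone, where fewer libraries entered the fit; it ran from 76 to 115 with each coral left out in turn. Coral was the replicate block, and without it the heat count fell from 42 to 11 in corals of inshore origin at the inshore site and from 6 to 3 in corals of offshore origin at the offshore site, while the interactions and site stayed at 0. The count for origin was 0 and became 1 with DESeq2. The counts for heat by origin, by site and by genotype, for site, for site by origin and for heat at own against other site types stayed at 0 under every alternative run, from 0 to 0 with each coral left out, and coral differences ran from 94 to 107. Of the 150 members, 88 were kept with a minimum of 10 CPM, 61 with 50 CPM, 90 with at least 19 pairs above 0, 57 with at least 23 (a list of 101), 94 without the libraries that stand apart, 78 with libraries 17 to 56, and from 105 to 132 with each coral left out. The cause of these shifts was not tested. For the counts of calls, shares over all rows under each alternative are not given here. Nothing particular to the members is therefore read from a rise or fall in those counts. DESeq2 was not run for the tests over several corals or genotypes. Counts and small fold changes of rows near 20 CPM limit precision, which the pair-to-pair SD of each change reflects.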
